A study of Mus musculus with 4 samples.

Results

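The COUP-TF genes Nr2f1, Nr2f2 and Nr2f6 encode orphan nuclear receptors, and all 3 were found by symbol among 52636 genes in mouse otic RNA-seq libraries. The family was selected on a measured value, because Nr2f1 was lower in both libraries labelled Brg1cKO than in both controls. Differences of the 3 genes between those groups are therefore given as a description, with no test. The libraries were made from cells sorted from the otocyst, the closed vesicle of otic ectoderm that becomes the inner ear. Control embryos and embryos labelled Brg1cKO, a conditional knockout of the chromatin remodeler Brg1, gave 2 libraries each, and every library came from 3000 cells. The study's title places the work around the activation of Sox2 and the identity of cells that form neurons and sensory cells. The sources used here do not give the Cre driver, the deleted exons, the age of the embryos or whether embryos were pooled. Nothing in the labels ties the replicates to separate embryos or litters, so the spread between them may be technical.

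COUP-TFs bind DNA as dimers, with each zinc-finger domain reading a half-site related to AGGTCA, and they often repress transcription. They share such sites, and the partner RXR, with the retinoic acid receptors. Nr2f1 (COUP-TFI) is needed in mice for a cochlear duct of normal length, and Nr2f2 (COUP-TFII) is known for setting venous identity in endothelium and for its roles in mesenchyme. Nr2f6 (EAR2), the most distant of the 3, is known from neurons of the brainstem and from T cells.

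The stretch of coding sequence that the 3 genes share most closely is shown because it holds the part of the receptor that reads the half-site. Among gapless windows of 30 codons it had the most bases in common, 75 of 90, and 27 of 30 encoded residues were the same. It covers the P-box, the segment of the first zinc finger that contacts the half-site. Capitals mark bases that are the same in all 3 genes, and each window is read from the transcript with the longest coding sequence in GENCODE M21 (mm10).
Nr2f1: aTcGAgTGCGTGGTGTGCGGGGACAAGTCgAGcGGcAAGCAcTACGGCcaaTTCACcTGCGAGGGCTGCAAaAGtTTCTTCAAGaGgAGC
Nr2f2: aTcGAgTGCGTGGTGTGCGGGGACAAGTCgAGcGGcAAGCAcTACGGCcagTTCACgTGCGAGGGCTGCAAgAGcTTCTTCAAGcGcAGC
Nr2f6: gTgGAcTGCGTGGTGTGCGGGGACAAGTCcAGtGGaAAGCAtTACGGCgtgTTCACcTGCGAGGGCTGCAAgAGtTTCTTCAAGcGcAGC

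The window starts at codon 81 of 420 in Nr2f1, codon 77 of 414 in Nr2f2 and codon 55 of 390 in Nr2f6. Over the whole coding sequence, Nr2f1 and Nr2f2 had the same encoded residue at 365 of 403 aligned codons (90.6%) and the same base at 81.9% of aligned positions. Nr2f6 shared 260 of 386 residues with Nr2f1 (67.4%) and 260 of 376 with Nr2f2 (69.1%). Even so, none of the 5090, 8578 and 3242 distinct windows of 75 bases, the read length, in the transcripts of Nr2f1, Nr2f2 and Nr2f6 occurred on the same strand of a transcript of any other gene. Exact reads of the 3 genes could thus be told apart from each other by sequence. Some windows do lie in transcripts on the opposite strand, as given below.

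Depth and makeup went with the labels. Reads in genes came to 15357265 and 19132360 per control and to 29361382 and 25875555 per Brg1cKO-labelled library. They were 48.2% and 49.3% of all records in controls, against 64.0% and 63.7%. Smarca4, which encodes Brg1, stood at 816 and 815 TMM-scaled CPM (a gene's reads relative to the scaled library size) in the controls and at 891 and 848 in the others (log2 fold change 0.09 ± 0.0995 SE, adjusted p = 0.817, edgeR). Sox2 itself was low and higher in both Brg1cKO-labelled libraries, at 12.1 and 16.7 against 30.1 and 33.6 CPM, a difference that did not pass (log2 fold change 1.14 ± 0.577 SE, adjusted p = 0.511, edgeR). With the deleted exons not known, the Smarca4 count over all exons did not check the labels, and every direction below rests on them. Markers of otic epithelium were present but low in the libraries labelled Brg1cKO, and markers of other cell types were found in all 4 libraries. Summed over 16 otic epithelial genes, the level was 1812 and 2105 CPM in controls, against 382 and 383 CPM in the other pair. Summed mesenchyme and endothelial lists exceeded the otic list in each library. Median log2 fold changes were 0.35 for 13 arterial, 0.11 for 11 endothelial, -1.49 for 9 red cell, 3.18 for 9 striated muscle and -0.25 for 7 neural crest genes. The last turned sign with limma voom (0.22), with the replicate number as a block (0.22) and without control replicate 1 (1.93). Mrc1, a macrophage receptor, was called higher, at 46.3 and 71.7 against 424 and 397 CPM (log2 fold change 2.80 ± 0.249 SE, adjusted p = 0.0371, edgeR). It was the 1 gene called of 10 in the list of macrophages and white blood cells, where edgeR called 0.0121% of all genes higher.

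Nr2f1 (ENSMUSG00000069171, chromosome 13, 78188973 to 78199757, minus strand, mm10) stood at 413 and 431 CPM in control libraries, against 189 and 169 CPM in the Brg1cKO-labelled pair. Both of the latter lay below both controls, and the replicates of each group lay close together. The means were 422 ± 12.3 and 179 ± 14.6 CPM (SD, n = 2 each), which is 57.6% less in the libraries labelled Brg1cKO. The log2 fold change was -1.24 ± 0.154 (SE) and ranged from -1.31 to -1.15 over 12 other settings. These values rest on 6365, 8122, 5539 and 4369 reads, so read-counting error alone was 1.11% to 1.51% of each value. In the same libraries the log2 fold change was negative for all 16 otic epithelial genes (median -1.99) and for all 11 genes of neuroblasts and neurons (median -1.79). The neuronal genes summed to 888 and 754 CPM in controls, against 289 and 223 CPM. It was positive for all 10 genes of macrophages and other white blood cells (median 2.17). No gene of these 3 lists was at 0 in all libraries. The part of these shifts in the Nr2f1 values was not tested, and in RNA from sorted pools fewer cells of a type and less RNA per cell cannot be told apart.

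Nr2f2 (ENSMUSG00000030551, chromosome 7, 70351944 to 70366735, minus strand) stood at 293 and 212 CPM in control libraries, against 218 and 212 CPM in the Brg1cKO-labelled pair. The first control was the highest, and the other 3 libraries lay within a few CPM of each other. The means were 252 ± 57.3 and 215 ± 4.48 CPM (SD, n = 2 each), with a log2 fold change of -0.23 ± 0.205 (SE). Without control replicate 1 the log2 fold change was 0.03, and without control replicate 2 it was -0.47, so its sign and size turned on the controls. Counting error was 1.25% to 1.58% of each value, while the controls differed from each other by 1.38-fold.

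Nr2f6 (ENSMUSG00000002393, chromosome 8, 71374123 to 71381960, minus strand) stood at 60.8 and 115 CPM in control libraries, against 103 and 81.8 CPM in the Brg1cKO-labelled pair. The latter both lay inside the range of the controls. The means were 87.9 ± 38.3 and 92.5 ± 15.2 CPM (SD, n = 2 each), with a log2 fold change of 0.07 ± 0.369 (SE). Leaving out control replicate 1 gave -0.31, and leaving out control replicate 2 gave 0.59. The control spread of 1.89-fold was the widest of the 3 genes and far above counting error, which was at most 3.27%.

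**Figure D1:**
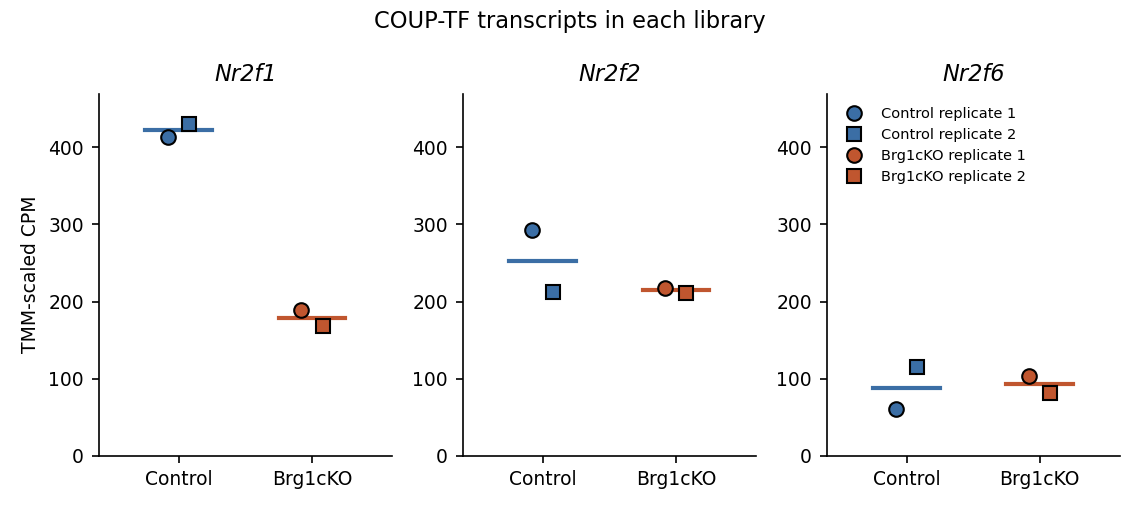
TMM-scaled CPM (vertical axis, from 0) of Nr2f1, Nr2f2 and Nr2f6 in each of 4 libraries; points are libraries, circles replicate 1 and squares replicate 2, and bars are group means. For Nr2f1 the libraries labelled Brg1cKO sit at 189 and 169 CPM, below the controls at 413 and 431, while for Nr2f2 and Nr2f6 the groups overlap.

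Nr2f1 was thus the 1 member of 3 whose groups did not overlap, and that is the pattern by which the family was chosen. Over all 16557 genes tested, both libraries labelled Brg1cKO lay below both controls for 17.8% and above both for 26.3%. More genes had reads in the libraries labelled Brg1cKO, 20859 and 20902 against 17266 and 17086 in controls. The part of this in the 2 shares was not tested. The family's makeup restates the choice by Nr2f1 and is no further finding, since Nr2f2 and Nr2f6 overlapped between the groups. Nr2f1 made up 53.9% and 56.9% of the family's summed CPM in controls, against 37.1% and 36.5% in the other pair. The summed CPM itself was 767 and 758 in controls, against 510 and 462 in the other pair. The CPM of Nr2f1 over that of Nr2f2 was 1.41 and 2.04 in controls, against 0.868 and 0.796 in the other pair. Before TMM scaling the CPM of Nr2f1 was 414 and 425 against 189 and 169, so scaling moved it little.

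Per kilobase of merged exons, the level of Nr2f1 was 81.2 and 84.6 CPM in controls, against 37.1 and 33.1 CPM in the other pair. On the same scale Nr2f2 lay between 24.5 and 33.9 CPM in the 4 libraries and Nr2f6 between 20.4 and 38.6 CPM. Nr2f1 was therefore well above both others in the controls, whereas on this length its level in the libraries labelled Brg1cKO was within the range of Nr2f6. The order of Nr2f2 and Nr2f6 did not hold beyond their spread. It also turned with the gene length used, a comparison chosen after seeing the data. Nr2f2 averaged 27.1 and Nr2f6 30.2 CPM per kilobase of merged exons, but 55.3 and 40.7 CPM per kilobase of the transcript with the longest coding sequence. The mean of Nr2f1 over the 4 libraries led on both lengths, at 59.0 and 93.7 CPM per kilobase. In the libraries labelled Brg1cKO, Nr2f1 stood at 59.0 and 52.5 CPM per kilobase of the transcript with the longest coding sequence. On that length these values lay above the Nr2f6 range of 27.4 to 51.9 and inside the Nr2f2 range of 50.1 to 69.3. Among 49 nuclear receptor genes, ranked by mean CPM per kilobase of merged exons, Nr2f1 came in at rank 1 in each group, at 82.9 and 35.1 CPM per kilobase. Nr2f6 had rank 4 in controls (29.5) and rank 2 in the other pair (31.0). Nr2f2 had rank 5 (29.2) and rank 3 (24.9). By their means in controls Rara, a retinoic acid receptor, and Nr1h2, the ubiquitous liver X receptor beta, stood above both, at 35.0 and 31.8 CPM per kilobase. In the other pair they stood below both, at 17.4 and 23.8. The control libraries differed, at 171 and 135 CPM for Rara and 130 and 83.3 CPM for Nr1h2. This order in controls did not hold beyond the spread of the libraries. Nor did that of Nr1h2 and Nr2f2 in the other pair, where Nr1h2 stood at 73.7 and 86.1 CPM.

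Each member overlaps a gene on the opposite strand. The start of Nr2f1 lies inside the long noncoding gene A830082K12Rik (chromosome 13, 78198017 to 78279391, plus strand), which shares 123 exonic bases with it. A830082K12Rik stood at 30.01 and 26.2 CPM in controls, against 22.6 and 24.3 CPM in the other pair. Its log2 fold change of -0.26 ± 0.52 (SE) did not pass (adjusted p = 0.922, edgeR). The noncoding gene B130024G19Rik (chromosome 7, 70364910 to 70489972, plus strand) begins inside the first intron of Nr2f2 and shares 643 exonic bases with it. It stood at 9.61 and 1.17 CPM in controls, against 3.45 and 5.82 CPM in the other pair, with no separation of the groups (log2 fold change -0.22 ± 1.6 SE, adjusted p = 0.982, edgeR).

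Nr2f6 overlaps the protein-coding gene Ocel1 (chromosome 8, 71371298 to 71379361, plus strand) over 1622 of its 2983 exonic bases. Of the 75-base windows of Nr2f6 transcripts, 38.8% also lie in Ocel1 transcripts on the opposite strand, against 6.63% for Nr2f2 with B130024G19Rik and 0.609% for Nr2f1 with A830082K12Rik. Ocel1 stood at 14.1 and 7.91 CPM in controls, against 22.8 and 12.8 CPM in the other pair (log2 fold change 0.69 ± 0.809 SE, adjusted p = 0.837, edgeR). The library kit keeps strand, but the sources used here do not say whether the counting used it. The Nr2f6 count is thus less certain than that of Nr2f1, because overlapping reads may have been dropped or assigned to either gene.

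**Figure D2:**
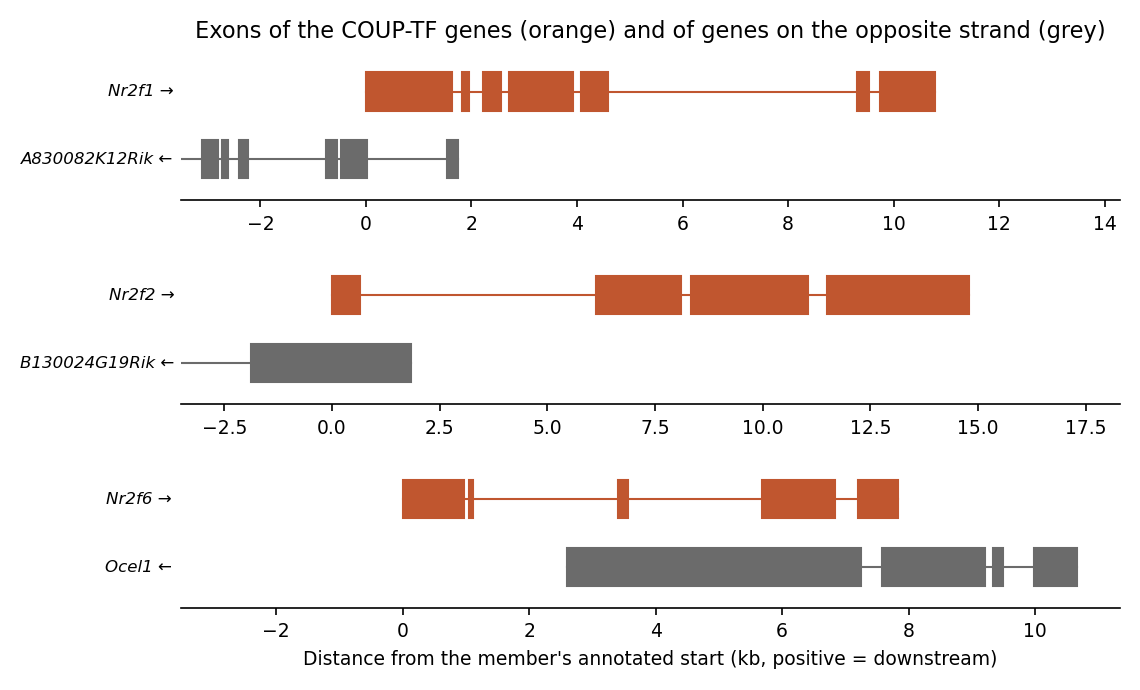
Merged exons (boxes) of each COUP-TF gene in orange and of its opposite-strand neighbour in grey, by distance in kb from the COUP-TF gene's annotated start; arrows give the direction of transcription and lines join the exons of a gene. Ocel1 exons cover much of the downstream part of Nr2f6, while the overlaps of Nr2f1 and Nr2f2 lie near their starts.

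Counted by gene, the other nuclear receptors showed no common direction. Of 46 such genes 32 passed the filter on low counts, 15 with positive and 17 with negative log2 fold changes and a median of -0.07, against 0.03 over all genes tested. None was called at an adjusted p under 0.05 by edgeR, where 0.0302% of all genes were called (0.0181% lower and 0.0121% higher). An unadjusted p under 0.05 was found for 3 of 32, against 12.5% of all genes. DESeq2 called 1 higher and 4 lower, where it called 8.33% of all genes higher and 6.30% lower. Limma voom called 0, against 0.121% of all genes higher and 0.205% lower. The median turned to 0.24 with limma voom, 0.25 with the replicate block and 0.16 without control replicate 1. In 7 of the 32 (21.9%) both libraries labelled Brg1cKO lay below both controls, and in 7 they lay above, close to the shares over all genes. Summed over the 46 genes, however, the level was lower in both libraries labelled Brg1cKO. It was 1158 and 1003 CPM in controls, against 911 and 804 CPM in the other pair.

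Rara, the retinoic acid receptor alpha, had the highest mean CPM of these. It stood at 171 and 135 CPM in control libraries, against 73.0 and 78.9 CPM in the Brg1cKO-labelled pair. The groups did not overlap, but the log2 fold change of -1.01 ± 0.253 (SE) did not pass (adjusted p = 0.285, edgeR). Rarg, the gamma form, stood at 117 and 90.3 against 66.2 and 60.7 CPM (adjusted p = 0.386, edgeR). Thra, a thyroid hormone receptor, stood at 120 and 98.6 against 88.9 and 66.5 CPM, and Nr1h2 at 130 and 83.3 against 73.7 and 86.1 CPM, with overlapping groups for Nr1h2 alone of that pair. Nr1d2, a receptor of the circadian clock, was low throughout, at 0.845 and 2.02 against 9.84 and 13.0 CPM (adjusted p = 0.458, edgeR).

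RXR proteins are the dimer partners of many receptors, and Nr2c1 and Nr2c2 (the testicular receptors TR2 and TR4) belong with the COUP-TFs in subfamily NR2. The 9 genes of this group were also counted among the other nuclear receptors. Of them 6 were tested, 4 negative and 2 positive (median log2 fold change -0.36), with 0 called by edgeR. An unadjusted p under 0.05 was found for 1 (Rxrg, already counted above), against 12.5% of all genes. DESeq2 called 1 lower, against 6.30% of all genes, and limma voom called 0. Rxrg stood at 26.0 and 38.6 CPM in controls, against 3.11 and 4.13 CPM in the other pair, with no overlap and a log2 fold change of -3.16 ± 0.73 (SE) that did not pass (adjusted p = 0.244, edgeR). Rxra stood at 53.9 and 101.9 against 95.3 and 76.1 CPM, and Rxrb at 116 and 57.8 against 72.1 and 50.3 CPM. Both pairs of groups overlapped, and the sign of each difference turned without control replicate 1, that of Rxra also without Brg1cKO replicate 1. Nr2c1 (31.6 and 42.1 against 23.1 and 31.7 CPM) and Nr2c2 (66.5 and 75.0 against 72.7 and 43.2 CPM) overlapped as well.

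**Figure D3:**
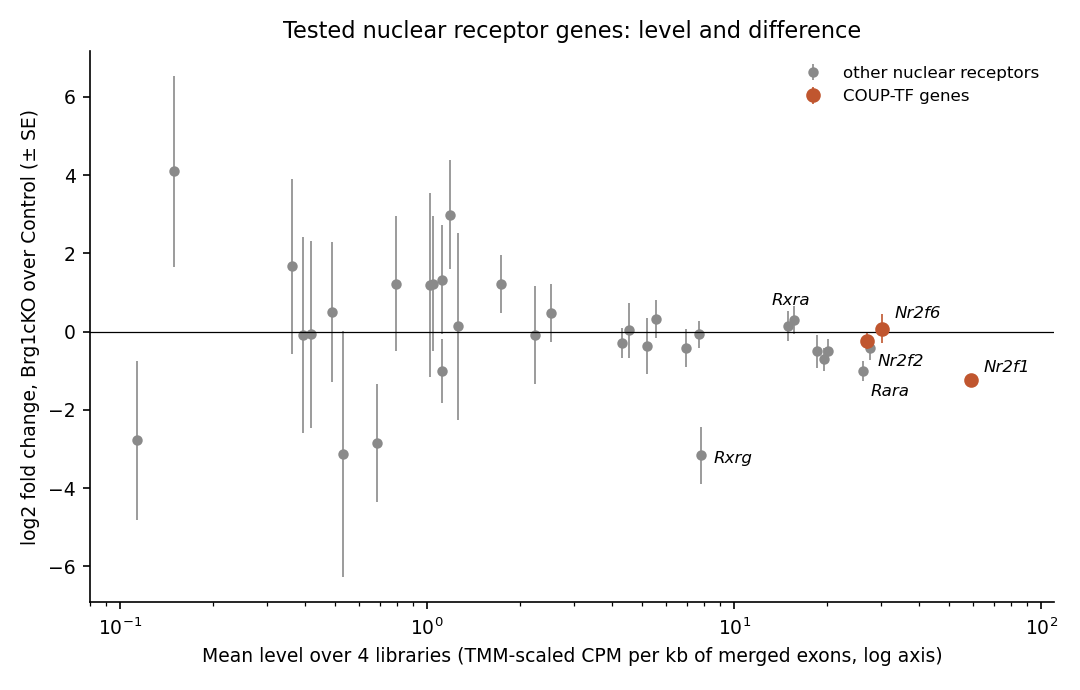
Log2 fold change of Brg1cKO over Control with its SE (vertical axis) against the mean level in TMM-scaled CPM per kb of merged exons (horizontal log axis) for the 35 tested nuclear receptor genes, with the COUP-TF genes in orange. Nr2f1 has the highest level and a value of -1.24, Nr2f2 and Nr2f6 lie at -0.23 and 0.07, and the error bars widen at low levels.

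Partners and coregulators of COUP-TFs were measured in full, with 20 of 20 genes tested. Of these 12 had negative and 8 positive log2 fold changes, with a median of -0.28 against 0.03 over all genes. None was called by edgeR, and 3 of 20 had an unadjusted p under 0.05, against 12.5% of all genes. DESeq2 called 2 higher and 4 lower, against 8.33% and 6.30% of all genes, and limma voom called 0. For 9 of 20 (45.0%) both libraries labelled Brg1cKO lay below both controls, against 17.8% of all genes, and for 3 they lay above, against 26.3%. Zfpm1 (FOG1), a zinc-finger cofactor related to the COUP-TF partner FOG2 and best known from blood cells, stood at 84.3 and 83.5 CPM in controls, against 187 and 204 CPM in the other pair. Its log2 fold change of 1.22 ± 0.215 (SE) did not pass (adjusted p = 0.128, edgeR). Summed macrophage and white blood cell markers stood at 306 and 279 CPM in control libraries, against 1436 and 1338 CPM in the Brg1cKO-labelled pair. Summed red blood cell markers went the other way, at 620 and 664 CPM in controls, against 226 and 214 CPM. The part of either list in the Zfpm1 values was not tested.

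Bcl11b (CTIP2), named for its interaction with COUP-TFs, stood at 92.5 and 39.7 CPM in controls, against 20.5 and 24.5 CPM in the other pair (log2 fold change -1.55 ± 0.514 SE, adjusted p = 0.368, edgeR). The groups did not overlap, though the controls themselves differed widely. Ncor1, a corepressor of unliganded receptors, had the highest mean CPM of the list. It stood at 478 and 351 against 382 and 377 CPM, with overlapping groups and a log2 fold change of -0.13 ± 0.175 (SE), whose sign turned without control replicate 1. Tbl1x, a subunit of the corepressor complex, stood at 284 and 247 against 209 and 206 CPM (adjusted p = 0.478, edgeR). The histone deacetylase Hdac2, the demethylase Kdm1a and the acetyltransferase Ep300 had log2 fold changes between -0.35 and -0.28, none of which passed. Ncoa3, a coactivator, stood at 107 and 111 against 148 and 165 CPM (log2 fold change 0.52 ± 0.22 SE, adjusted p = 0.391, edgeR).

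The retinoic acid pathway uses receptors that compete with COUP-TFs for half-sites. Its receptor genes, Rara and Rarg among them, were also counted among the other nuclear receptors. All 15 genes of the list were tested, and 12 had negative and 3 positive log2 fold changes, with a median of -0.59. None was called by edgeR, and 5 of 15 had an unadjusted p under 0.05, against 12.5% of all genes. DESeq2 called 5 lower, against 6.30% of all genes, and 0 higher, and limma voom called 0. In 7 of 15 (46.7%) both libraries labelled Brg1cKO lay below both controls, against 17.8% of all genes, and in 3 they lay above, against 26.3%. Of the 16 otic epithelial markers 14 lay below both controls in the same libraries (median -1.99), and their part in these values was not tested. Aldh1a3, an enzyme that makes retinoic acid, stood at 19.0 and 40.9 CPM in controls, against 1.61 and 0.116 CPM in the other pair (47 and 3 reads), with a log2 fold change of -5.11 ± 1.35 (SE) that did not pass (adjusted p = 0.31, edgeR). Cyp26c1, an enzyme that breaks it down, stood at 51.2 and 79.7 against 17.3 and 24.4 CPM (log2 fold change -1.65 ± 0.453 SE, adjusted p = 0.327, edgeR). Stra6, a retinol transporter, stood at 33.8 and 46.2 against 16.5 and 15.2 CPM (adjusted p = 0.368, edgeR).

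Crabp1 and Crabp2 bind retinoic acid inside the cell. Crabp2 stood at 146 and 98.8 CPM in controls, against 87.5 and 75.2 CPM in the other pair. Crabp1 stood at 62.9 and 168 against 84.8 and 109 CPM, so the second group lay inside the first. Aldh1a2, a further synthesis enzyme and named here after its values were seen, was low, at 1.23 and 1.06 against 3.38 and 9.26 CPM (log2 fold change 2.46 ± 1.75 SE, adjusted p = 0.695, edgeR). The lowest adjusted p in the list was 0.285, for Rara (edgeR).

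**Figure D4:**
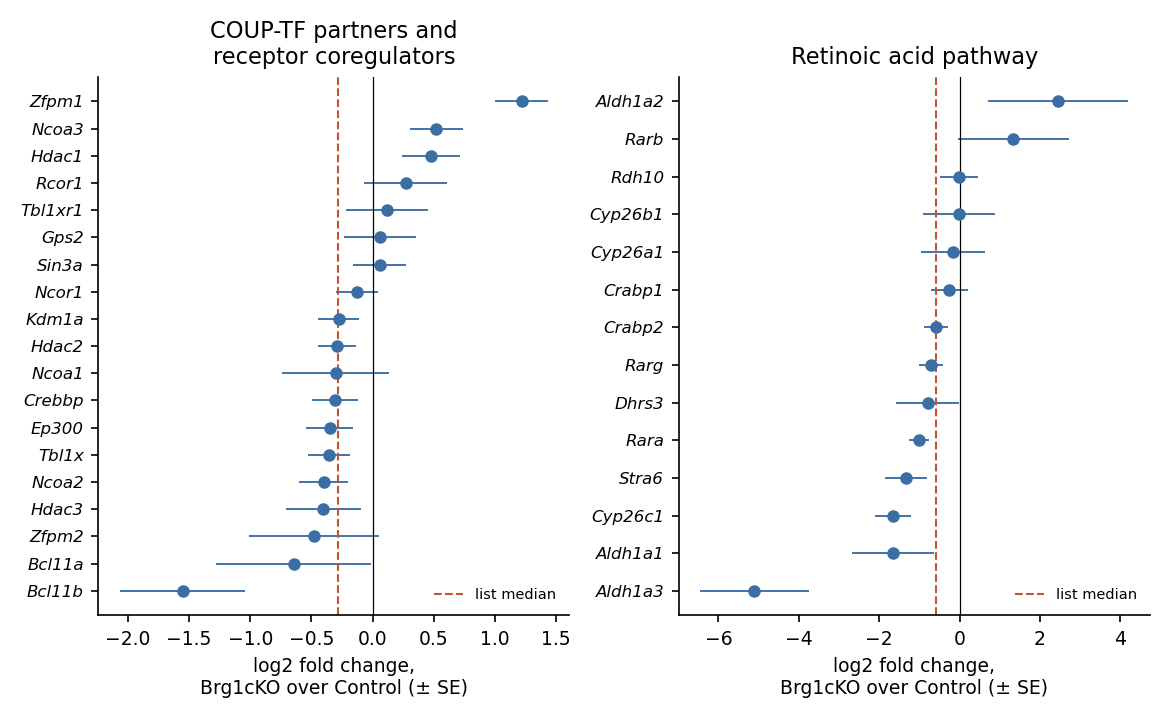
Log2 fold change of Brg1cKO over Control with its SE (horizontal axes, which differ in range) for each tested gene of the partner and coregulator list (left) and the retinoic acid list (right), with 1 gene of each list not shown; dashed lines are the medians of the whole lists, -0.28 over 20 genes and -0.59 over 15. Most points lie to the left of 0, and the outermost are Bcl11b at -1.55 and Zfpm1 at 1.22 on the left and Aldh1a3 at -5.11 and Aldh1a2 at 2.46 on the right.

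Veins, lymphatics and mesenchyme are the settings in which Nr2f2 is best known. Of 8 venous and lymphatic genes 7 were tested, 5 positive and 2 negative, with a median log2 fold change of 0.15 and 0 called by edgeR. An unadjusted p under 0.05 was found for 1, against 12.5% of all genes. DESeq2 called 1 lower, against 6.30% of all genes, and limma voom called 0. The summed level of the list was 1484 and 1398 CPM in controls, against 1460 and 1408 CPM in the other pair. Pdpn was at 0 reads in all 4 libraries. Ephb4, the ephrin receptor of veins, stood at 369 and 227 against 268 and 300 CPM, the first control being the highest. The sign of the Ephb4 difference turned without that control, without Brg1cKO replicate 1 and with limma voom. Nrp2, a receptor of veins and lymphatics that neurons also make, stood at 470 and 545 against 379 and 378 CPM (adjusted p = 0.368, edgeR), and Aplnr, the apelin receptor, at 206 and 282 against 320 and 221 CPM.

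Of 18 mesenchyme genes 11 were positive and 7 negative, with a median of 0.32 and 0 called by edgeR. An unadjusted p under 0.05 was found for 5, against 12.5% of all genes. DESeq2 called 2 higher and 3 lower, against 8.33% and 6.30% of all genes. Limma voom called 2 lower, against 0.205% of all genes. The summed level of the mesenchyme list went the other way from its median, from 4108 and 4446 CPM to 3326 and 3375 CPM. Col1a1, the main collagen of mesenchyme, stood at 1107 and 1207 against 568 and 580 CPM (adjusted p = 0.0543, edgeR), whereas Col3a1 was at 1188 and 1299 against 1300 and 1358 CPM. In the otic list Oc90, the main otoconial protein, was the 1 gene called of 16, against 0.0302% of all genes, at 782 and 732 against 44.6 and 49.1 CPM (log2 fold change -4.01 ± 0.155 SE, adjusted p = 0.000326, edgeR). An unadjusted p under 0.05 was found for 11 of the 16, against 12.5% of all genes. DESeq2 called 13 lower, against 6.30% of all genes, and limma voom 2 lower, against 0.205%. Epcam, which joins epithelial cells, was at 144 and 205 against 42.8 and 37.1 CPM.

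**Figure D5:**
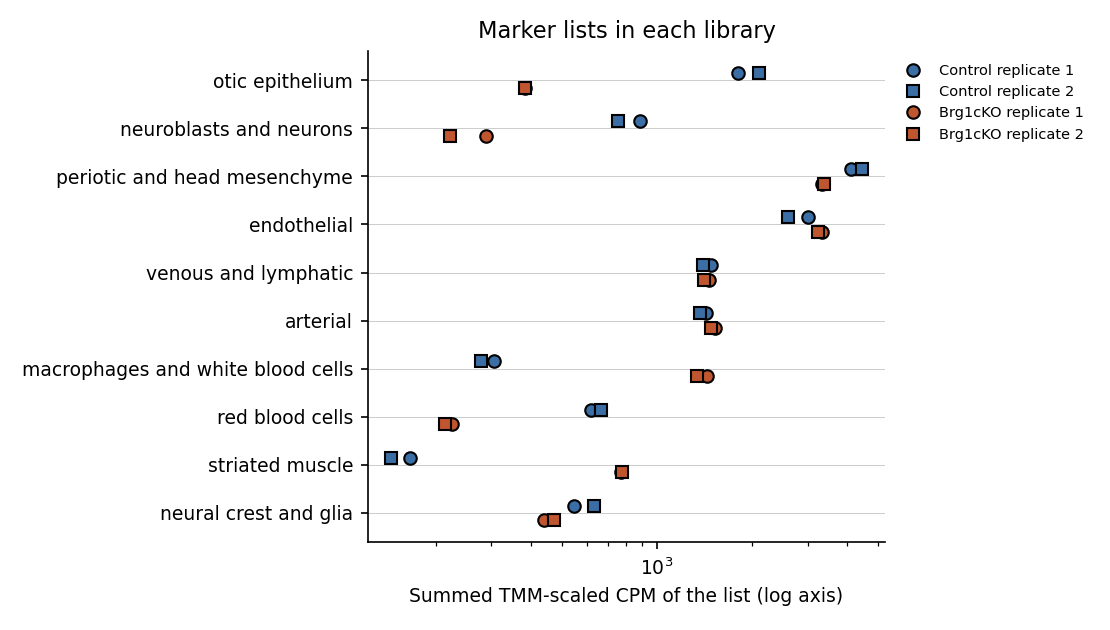
Summed TMM-scaled CPM (horizontal log axis) of 10 marker lists in each library, circles replicate 1 and squares replicate 2. Otic epithelial genes sit at 1812 and 2105 CPM in controls, against 382 and 383 CPM in the other pair, while venous and lymphatic genes lie between 1398 and 1484 CPM in all 4.

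Promoter windows were examined for features that the choice of the family did not use. RefSeq windows of 300 bases around a start (GRCm38.p6, the assembly of mm10) matched all 3 genes, with 2 starts for Nr2f1. The table's start for Nr2f6 lies 8 bases from that of the transcript with the longest coding sequence, and the nearer one for Nr2f1 lies 884 bases downstream of it. The single start for Nr2f2 lies 6153 bases upstream of that of its transcript with the longest coding sequence, whose own promoter was not examined. The windows differ widely in composition. That of Nr2f6 was 82.7% G and C with 53 CpG dinucleotides, and the first of Nr2f1 was 68.0% with 23. The second window of Nr2f1 was 43.0% with 4, and that of Nr2f2 was 49.7% with 2, against medians of 52.7% and 7 over 32851 windows. None of the 4 windows held the half-site AGGTCA on either strand, which 16.3% of all windows did. The letters of a window are no measurement of binding.

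Genes with such a half-site in a promoter window were close to those without in median and in the share with an unadjusted p under 0.05. Of 1667 tested, 893 were positive and 774 negative, with a median log2 fold change of 0.07, against 0.03 for 9736 genes without one. Both libraries labelled Brg1cKO lay below both controls for 15.7% of genes with a half-site, against 18.9% of those without. They lay above both for 28.5%, against 26.3%. None of the 1667 was called by edgeR, 12.2% had an unadjusted p under 0.05 against 12.6% of the genes without a half-site, and DESeq2 called 152 higher and 89 lower, where it called 1379 higher and 1043 lower of all 16557 genes. Limma voom called 2 higher and 4 lower, against 20 and 34 of all genes. A direct repeat of AGGTCA with 1 base between, a spacing that COUP-TFs bind, stood in 13 windows, and 6 of the genes were tested, too few to describe as a set.

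The genes whose profile over the 4 libraries was nearest to that of each member were taken from 9226 genes whose average log2 CPM was 4 or more. Likeness was the root mean square difference of log2(CPM + 0.5) values centred on each gene's mean. For Nr2f1 they were Cog2 (0.0293), a subunit of a Golgi tethering complex, Rab5b (0.0393), an endosomal GTPase, Socs2 (0.0504), a feedback inhibitor of cytokine signalling, and Acaca (0.0541), which starts fatty acid synthesis. Cog2 stood at 94.8 and 93.5 CPM in controls, against 42.3 and 37.0 CPM in the other pair. For Nr2f2 they were Phactr4 (0.00912), Igfbp2 (0.0111), Ercc2 (0.0219) and Phldb2 (0.0233). Igfbp2, a binding protein of insulin-like growth factors, stood at 424 and 309 against 311 and 305 CPM. For Nr2f6 they were Rxra (0.0320), Myo5a (0.0359), Tex10 (0.0390) and Stag1 (0.0426), all lowest in control replicate 1. With 4 libraries, profiles this close are a description only.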

How the data were processed

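RNA was measured in 4 libraries, 2 labelled Control and 2 labelled Brg1cKO, made from 3000 cells each with a random-primed, strand-keeping kit and single-end reads, per the labels' protocols. The authors deposited raw read counts per Ensembl gene; per the submitters' processing notes, which state no role, HISAT2, HTSeq, DESeq2 and the build mm10 were used. The counting's strand setting and annotation were not given in the sources used here. The 5 closing lines that name no gene (36.0% to 51.8% of records) were left out. Symbols and exons came from GENCODE M21, which matched 52489 of 52636 identifiers.

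The test of the counts was edgeR 4.0.16 (R 4.3.3), using filterByExpr with a minimum count of 10 (16557 genes), TMM scaling, the quasi-likelihood F-test with robust moderation and group as its term, and Benjamini-Hochberg adjustment over all genes, called under 0.05. The code was tested on simulated data. DESeq2 1.42.0, limma 3.58.1 (voom), other scalings and filters, a replicate block and each library left out were alternatives. The members and gene lists were chosen with earlier results of these data known. The rule for named genes took, per pathway list, the 5 with the highest CPM and the 4 with the smallest p, per cell type list the 3 with the highest CPM and any called (of which the venous, mesenchyme and otic lists are described by gene), the 4 nearest profiles per member, and annotated neighbours starting within 5 kb or overlapping. Of these, 2 genes are counted in their lists but not reported here by name.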

Additional observations from a re-analysis of the deposited data

How the results depend on the processing

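The count of 5 genes called was 417 with every gene of at least 1 count, 10 with a minimum count of 50, 2422 with DESeq2, 54 with limma voom and 70 with the newer edgeR moderation, which was chosen after seeing the data. Leaving out 1 library gave 33 (without Brg1cKO replicate 2) to 3519 (without control replicate 1); a lone library is then assumed to vary like the other group. With the replicate number as a block it was 140, but same-numbered libraries did not deviate together (correlation 0.00516 across genes), so they share only a number. The cause of these changes was not tested. The log2 fold change of Nr2f1 ranged from -1.31 to -1.15 over 12 alternatives, and since it was chosen with groups that do not overlap, leaving out 1 library could not turn its sign. Nr2f2 ranged from -0.47 to 0.03 and Nr2f6 from -0.31 to 0.59.

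The median of all genes was 0.16 with limma voom and with the block, 0.21 with every gene and 0.29 without control replicate 1 and also without control replicate 2, against 0.03. Medians of marker lists moved beyond the replicate spread in a few cases: arterial to 0.31 (RLE), 0.39 (upper quartile) and 0.31 (DESeq2), white blood cells to 2.38 (block), and striated muscle to 2.80 (every gene) and 3.47 (minimum of 50). With 1 library left out the medians ran from -0.45 to -0.11 (NR2 relatives and RXR), 0.18 to 0.45 (arterial), 0.14 to 0.30 (mesenchyme), -2.21 to -1.76 (otic), -1.99 to -1.63 (neurons), 2.12 to 2.60 (white blood cells), 2.80 to 2.99 (muscle) and -0.44 to 1.93 (neural crest). Of 37 other genes checked, 29 kept their sign throughout. Ephb4 was 0.00248 with voom, and B130024G19Rik 0.51 with voom and 0.41 with the block. With 1 library left out, values ran from -0.25 to 0.65 (Rxra), -0.94 to 0.0877 (Rxrb), -0.70 to 0.0458 (Nr2c2), -0.35 to 0.12 (Ncor1), -0.79 to 0.60 (Crabp1), -0.39 to 0.33 (Ephb4), -0.13 to 0.40 (Aplnr) and -1.07 to 1.99 (B130024G19Rik).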
